A study of Homo sapiens with 9 samples.

Results

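The genes described here encode aminoacyl-tRNA synthetases, the enzymes that load amino acids onto transfer RNAs: 19 for the cytosol (symbols ending in 1, with FARSA and FARSB) and 16 for the mitochondrion (symbols ending in 2). They are 35 of the 52165 genes listed in both count tables and were listed by name. No value entered the rule, but the list was drawn up with earlier results of these data known. Polyadenylated RNA was sequenced from Kyse150 and TE11, human esophageal squamous cell carcinoma lines grown in RPMI 1640 with fetal bovine serum, which carried a lentiviral shRNA against KDM2A (shKDM2A) or a control shRNA (shNC). KDM2A removes methyl groups from lysine 36 on histone H3, and the study asked which transcripts lie downstream of it. The groups were 2 Kyse150 shNC, 2 Kyse150 shKDM2A, 3 TE11 shNC and 2 TE11 libraries labelled shKDM2A. The labels name no second shRNA sequence, no time after transduction and no clone, so effects of the shRNA other than on KDM2A cannot be told apart from effects of less KDM2A. They call the replicates independent without saying what was repeated, so p-values reflect how far these libraries vary, and part of that variation may be technical.

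Each synthetase recognises one amino acid and the transfer RNAs that belong to it, except EPRS1, which joins glutamyl and prolyl activities in one chain. Cytosol and mitochondrion mostly use separate enzymes from separate nuclear genes. GARS1 and KARS1 serve both compartments, and mitochondria obtain glutaminyl-tRNA through amidation in place of a synthetase. Several cytosolic enzymes are held with the scaffold proteins AIMP1, AIMP2 and EEF1E1 in a multi-synthetase complex. When amino acids run short, uncharged transfer RNA activates the kinase GCN2. Phosphorylation of eIF2 then favours translation of the transcription factor ATF4, and many cytosolic synthetase genes are known targets of ATF4.

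KDM2A itself was examined first. Levels are given as CPM, a gene's counts relative to the scaled size of its library. The Kyse150 controls stood at 172 and 174.7 CPM, and the knockdowns at 107.2 and 104.5. The means were 173 ± 1.88 and 106 ± 1.89 (SD, n = 2 each) and the change was -0.71 on the log2 scale (SE 0.07), with an edgeR adjusted p of 3.87e-09. Genes with an adjusted p under 0.05 over all genes tested are called higher or lower here. In TE11 it stood at 120, 116.4 and 120 CPM in the controls and at 126.2 and 139.5 in the libraries labelled shKDM2A. KDM2A was therefore not lower there: the means were 119 ± 2.06 (SD, n = 3) and 133 ± 9.44 (SD, n = 2), and the change was 0.16 on the log2 scale (SE 0.07), with an edgeR adjusted p of 0.0335. Over 12 alternative settings that adjusted p ran from 0.0101 to 0.398. The target gene goes against the label of these TE11 libraries, and every direction given for TE11 is between the libraries as labelled.

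Gene counts per library were 6052883 to 7167055 in Kyse150 and 8457767 to 12073098 in TE11. Summed squamous epithelial markers (KRT5, KRT14, KRT6A, TP63, SOX2, DSG3, EPCAM and CDH1) were 2004 to 2011 CPM in the Kyse150 controls and 1798 to 1806 in the knockdowns, where KRT14 (2.96-fold), DSG3 (1.31-fold) and TP63 (1.29-fold) were called higher and KRT5, EPCAM and CDH1 lower. In TE11 they were 3504 to 3823 CPM in the controls and 1638 to 1675 in the libraries labelled shKDM2A, where all 8 were called lower. SOX2 had 1 or no count per library in Kyse150 and in the libraries labelled TE11 shKDM2A, against 20.25 to 22.39 CPM in the TE11 controls. Fibroblast markers summed to 18.15 to 21.22 CPM in the TE11 controls and to 2.68 to 3.67 in the labelled libraries. In Kyse150 they summed to 6.37 to 6.70 CPM in the controls and 10.8 to 11.8 in the knockdowns, with COL1A1 called 1.72-fold higher, the fibroblast genes COL1A2 and DCN being at 0 in both groups. Endothelial markers summed to 6.63 to 9.27 CPM in the TE11 controls and to 2.77 or less in every other library, and leukocyte markers to 4.32 or less in all 9, with PTPRC at 0 throughout. In Kyse150 the leukocyte sum was 1.75 to 1.84 CPM in the controls against 3.88 to 4.32 in the knockdowns, with CSF1R called 2.76-fold higher. The part of these differences in the synthetase values was not tested. In bulk RNA, fewer cells of a type and less RNA per cell cannot be told apart.

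RefSeq promoter sequences on GRCh38.p14 (250 bases before to 50 after a start) were at hand for 30 of the 35 genes, 16 cytosolic and 14 mitochondrial. AARS2, LARS1, VARS1, VARS2 and YARS1 had no entry. The C/EBP-ATF response element, the motif bound by ATF4 with a C/EBP partner, was searched as TGATGNAA on both strands (TTNCATCA on the other), where N is any base. It occurred in 7 of the 16 cytosolic genes and in 1 of the 14 mitochondrial genes, YARS2, against 4.46% of all 27305 genes with a promoter. All 7 belong to the 13 cytosolic synthetases listed here as ATF4 targets, of which 10 had a promoter sequence. That list was drawn up with earlier results of these data known, so the overlap is a description. The 30 bases around each match are shown because the motif was found in more of the cytosolic than of the mitochondrial genes, a count that was not tested. They read 5′ to 3′ in the direction of the gene, with the match in capitals.
AARS1: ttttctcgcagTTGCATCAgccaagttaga
CARS1: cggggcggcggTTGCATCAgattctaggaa
GARS1: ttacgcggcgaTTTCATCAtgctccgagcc
IARS1: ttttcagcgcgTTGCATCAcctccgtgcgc
MARS1: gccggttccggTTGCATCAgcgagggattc
NARS1: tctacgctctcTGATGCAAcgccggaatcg
TARS1: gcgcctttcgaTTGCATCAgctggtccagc
YARS2: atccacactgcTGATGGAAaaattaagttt

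The windows lie at chr16:70289675-70289704 for AARS1, chr11:3057407-3057436 for CARS1, chr9:92293692-92293721 for IARS1, chr18:57621804-57621833 for NARS1 and chr12:32756076-32756105 for YARS2, all on the reverse strand. On the forward strand they lie at chr7:30594834-30594863 for GARS1, chr12:57488053-57488082 for MARS1 and chr5:33440956-33440985 for TARS1. The match began 187 bases before the start in AARS1 and 197 before it in YARS2, 33 before it in GARS1, and within 15 bases of it in the other 5. In 6 of the 7 cytosolic windows the element was read from the strand opposite to the gene, and in NARS1 and YARS2 from the same strand. A match is a description of letters and not a binding site. Of these 7 cytosolic genes, 5 were called higher in the Kyse150 knockdowns (AARS1, CARS1, GARS1, IARS1 and MARS1), TARS1 was called lower and NARS1 was not called. YARS2 was called lower. Of the searched cytosolic genes without a match, WARS1, SARS1 and QARS1 were called higher and FARSB, HARS1 and RARS1 lower. EPRS1, FARSA and KARS1 were not called. Among all genes tested in Kyse150, 24.8% were called higher and 23.3% lower. In the libraries labelled TE11 shKDM2A, CARS1, GARS1, MARS1, NARS1 and YARS2 were called higher and TARS1 lower, while AARS1 and IARS1 were not called. Among all genes tested in TE11, 35.9% were called higher and 42.2% lower.

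Other motifs were searched in the same promoters. The E-box CACGTG occurred in CARS2, EARS2, MARS2 and IARS1, that is in 3 of 14 mitochondrial and 1 of 16 cytosolic genes, against 8.77% of all genes. The consensus motif of NRF1, a regulator of nuclear genes for mitochondrial proteins, occurred in MARS2 alone, against 1.52% of all genes. The MARS2 window is shown because MARS2 had the largest fall of any synthetase in Kyse150. It lies at chr2:197705346-197705375 on the forward strand, with the E-box, in capitals, beginning 11 bases before the start.
MARS2: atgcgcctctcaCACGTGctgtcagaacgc

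Per length, transcripts of the cytosolic enzymes were the more abundant. CPM per kilobase of exon (GENCODE release 29 lengths) had a median of 41.3 over the 19 cytosolic genes in the Kyse150 controls and of 10.5 over the 16 mitochondrial genes. In the TE11 controls these medians were 36.2 and 8.31. KARS1 (lysine) was the highest cytosolic gene in the Kyse150 controls at 118.9 CPM per kilobase and EPRS1 in the TE11 controls at 82.6, while CARS1 (cysteine) was the lowest in both, at 11.7 and 6.24. Among mitochondrial genes IARS2 (isoleucine) stood at 95.9 and 102 CPM per kilobase, above the next, YARS2 at 26.5 in Kyse150 and RARS2 at 21.3 in TE11. IARS2 alone supplied 37.1% to 45.8% of the mitochondrial synthetase counts of a group.

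Summed over genes, the cytosolic share was larger in the libraries labelled shKDM2A of both lines. The cytosolic sums include GARS1 and KARS1, which serve both compartments, and sums without them were not worked out. Mean GARS1 went from 284.7 CPM in the controls to 426.8 in Kyse150 and from 199.2 to 286.5 in TE11. Mean KARS1 went from 483.3 to 445.5 CPM in Kyse150 and from 284.1 to 493.6 in TE11. In Kyse150 the cytosolic sum was 4449 and 4506 CPM in the controls against 4969 and 5011 in the knockdowns, and the mitochondrial sum was 1079 and 1073 against 985.4 and 985.5. The ratio of cytosolic to mitochondrial counts was 4.12 and 4.20 in the controls against 5.04 and 5.08 in the knockdowns. In TE11 the ratio was 4.20, 4.17 and 4.18 in the controls and 4.63 and 4.88 in the libraries labelled shKDM2A. The groups did not overlap in either line. In TE11 both sums were higher in the labelled libraries, the cytosolic at 4957 and 5116 CPM against 3824 to 3921, the mitochondrial at 1071 and 1048 against 911.1 to 940.6. Without IARS2 the ratio was 6.55 to 6.68 in the Kyse150 controls and 8.04 to 8.37 in the knockdowns, and 7.61 to 7.89 against 8.43 to 8.56 in TE11. These sums were not tested, since 2 against 2 or 3 libraries leave no exact permutation test that can pass 0.05.

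**Figure D1:**
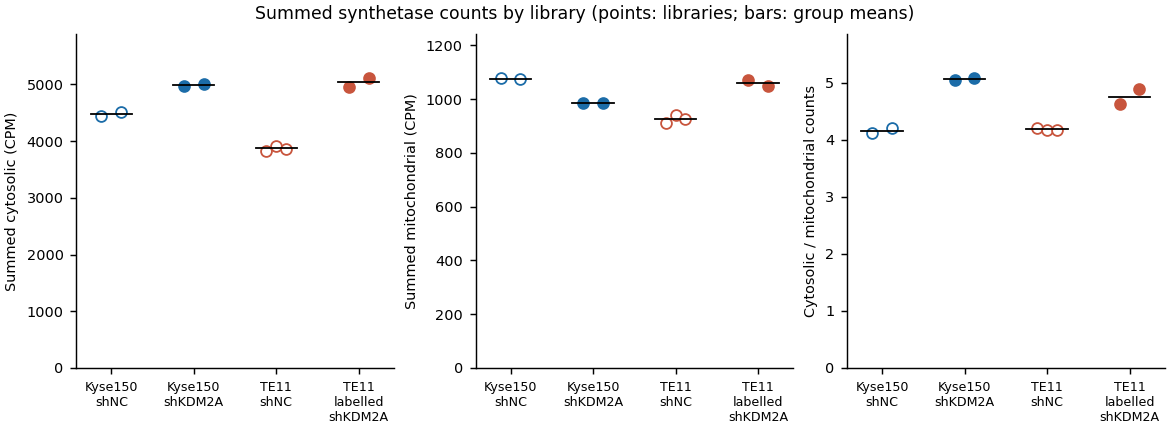
Summed CPM of the 19 cytosolic and 16 mitochondrial synthetase genes and their ratio, with 1 point per library in each of the 4 groups. The ratio lies between 4.12 and 4.20 in all 5 control libraries and between 4.63 and 5.08 in the 4 libraries labelled shKDM2A.

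In Kyse150 the 2 compartments differed mainly in their share of rises. Of the 19 cytosolic genes, 9 were called higher in the knockdowns and 5 lower. Of the 16 mitochondrial genes, 2 were called higher and 5 lower. Among all 14060 genes tested, 48.2% were called, 24.8% higher and 23.3% lower, by edgeR's quasi-likelihood test with Benjamini-Hochberg adjustment. The 21 synthetases called of 35 are a somewhat larger share than that. DESeq2 called 17 of the 35 beside 27.8% of all genes. In the edgeR fit the cytosolic rises stood at 47.4% and the mitochondrial rises at 12.5%. The falls were closer, at 26.3% of the cytosolic and 31.25% of the mitochondrial genes. The number of mitochondrial rises, 2 here, became 0 with DESeq2, and the difference between the compartments was not tested. The median log2 fold change was 0.16 over the cytosolic and -0.14 over the mitochondrial genes, beside 0.00232 over all genes tested. Groups did not overlap for 17 cytosolic and 10 mitochondrial genes, against 73.3% of all genes. No synthetase was called with a doubling of its level or a fall to 50% or less.

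The rises were led by WARS1 (tryptophan; ENSG00000140105, chr14:100333788-100376805 on GRCh38), AARS1 (alanine; ENSG00000090861, chr16:70252295-70289543) and GARS1 (glycine; ENSG00000106105, chr7:30594681-30634033). WARS1 was at 138.5 and 142.1 CPM in the controls and at 226.5 and 227.9 in the knockdowns, 1.62-fold higher (log2 SE 0.07; edgeR adjusted p = 1.26e-09). AARS1 was at 308.7 and 326.2 CPM in the controls and at 492.8 and 473.4 in the knockdowns, 1.52-fold higher (log2 SE 0.06; edgeR adjusted p = 9.58e-10). GARS1 was at 289.7 and 279.6 CPM in the controls and at 430.1 and 423.6 in the knockdowns, 1.50-fold higher (log2 SE 0.06; edgeR adjusted p = 1.91e-09). In each of the 3 the gap between the groups was several times the spread within them. SARS1, for serine, was at 159.4 and 170.3 CPM in the controls and at 246.8 and 243.6 in the knockdowns (1.49-fold, edgeR adjusted p = 3.31e-08). CARS1, for cysteine, was at 118.9 and 115.5 CPM in the controls and at 171.4 and 163.2 in the knockdowns (1.43-fold, edgeR adjusted p = 9.71e-07). The groups were apart in both genes. QARS1 (glutamine, 1.25-fold), MARS1 (methionine, 1.25-fold), IARS1 (isoleucine, 1.20-fold) and YARS1 (tyrosine, 1.19-fold) also rose. The QARS1 controls differed, at 176 and 212.4 CPM. Without control replicate 1 its change fell from 0.32 to 0.19 on the log2 scale (edgeR adjusted p = 0.0556, the highest over 11 alternatives, the lowest being 6.86e-07).

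The falls among cytosolic enzymes were in TARS1, RARS1, FARSB, VARS1 and HARS1. TARS1, for threonine, was at 214 and 207.1 CPM in the controls and at 144.9 and 149.6 in the knockdowns, or 0.699 of control (log2 SE 0.07; edgeR adjusted p = 3.02e-07). RARS1, for arginine, was at 232.4 and 233.7 CPM in the controls and at 162.3 and 173.2 in the knockdowns, or 0.720 of control (log2 SE 0.06; edgeR adjusted p = 7.83e-07). Both sat lower in each knockdown than in each control. VARS1 (valine) fell to 0.741 of control and FARSB, the beta subunit of the cytosolic phenylalanine enzyme, to 0.732, whereas its alpha subunit FARSA stood at 232.2 and 268.7 CPM in the controls and at 251.6 and 234.4 in the knockdowns, which overlap. HARS1 (histidine) fell to 0.873 of control (edgeR adjusted p = 0.0137), and over 11 alternatives its adjusted p ran from 0.00796 to 0.131. It was lost with DESeq2, without knockdown replicate 1 and without control replicate 1. EPRS1, FARSA, KARS1, LARS1 and NARS1 were not called, with fold changes of 0.922 (KARS1) to 1.11 (LARS1).

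Grouped by what the enzymes are known for, the 13 cytosolic members of the ATF4 list held 8 rises and 2 falls, with a median log2 fold change of 0.26. The 6 others held 1 rise (QARS1) and 3 falls (FARSB, HARS1 and RARS1), with a median of -0.16. The falls on the list were TARS1 and VARS1. Of the 9 class I cytosolic enzymes, which share the Rossmann fold, 6 rose and 2 fell. Of the 9 class II enzymes 3 rose and 3 fell, EPRS1 having a catalytic domain of each class and being left out. Of the 7 enzymes of the multi-synthetase complex, 3 rose (IARS1, MARS1 and QARS1) and RARS1 fell. Beside these counts, 24.8% of all genes tested were called higher and 23.3% lower. Class I stood at 66.7% higher and 22.2% lower, and class II at 33.3% each way. Differences between the groupings were not tested. These lists were drawn up with earlier results of these data known, so they are descriptions.

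Among mitochondrial enzymes the falls were in MARS2, WARS2, YARS2, EARS2 and LARS2. MARS2 (methionine; ENSG00000247626, chr2:197705369-197708387) was at 38.37 and 34.53 CPM in the controls and at 19.23 and 22.64 in the knockdowns, or 0.573 of control (log2 SE 0.14; edgeR adjusted p = 2.19e-05). WARS2 (tryptophan; ENSG00000116874, chr1:119031216-119140671) was at 50.27 and 56.39 CPM in the controls and at 30.85 and 33.96 in the knockdowns, or 0.607 of control (log2 SE 0.11; edgeR adjusted p = 5.90e-06). YARS2, for tyrosine, was at 57.77 and 56.39 CPM in the controls and at 40.69 and 40.92 in the knockdowns, or 0.715 of control (log2 SE 0.10; edgeR adjusted p = 2.75e-04). All 3 had separate groups. EARS2, for glutamate, was at 82.55 and 87.72 CPM in the controls and at 68.41 and 58.23 in the knockdowns (0.745 of control, edgeR adjusted p = 4.31e-04). HARS2, for histidine, was at 28.32 and 30.75 CPM in the controls and at 37.26 and 37.68 in the knockdowns (1.27-fold higher, edgeR adjusted p = 0.0202). The groups were again apart in both genes.

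The calls of HARS2, TARS2 and LARS2 were the least firm. The HARS2 adjusted p ran from 0.0120 to 0.213 over 11 alternatives and passed 0.05 with DESeq2, without either knockdown replicate and without control replicate 1. TARS2 (threonine) was 1.20-fold higher (edgeR adjusted p = 0.0337), with a range of 0.0189 to 0.264, and its call was lost with DESeq2, without a low-count filter, with the replicate block and when any 1 of the 4 libraries was left out. LARS2 (leucine) stood at 0.848 of control (edgeR adjusted p = 0.0402), with a range of 0.0246 to 0.271, and was lost with DESeq2, with upper quartile scaling, with the replicate block and without knockdown replicate 2 or control replicate 2. The other 9 mitochondrial genes were not called: AARS2, CARS2, FARS2, IARS2, NARS2, PARS2, RARS2, SARS2 and VARS2. Their fold changes ran from 0.850 (FARS2) to 1.09 (CARS2). PARS2, FARS2 and SARS2 stood below 16 CPM in every Kyse150 library, where the standard error of the log2 change was 0.19 to 0.31.

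**Figure D2:**
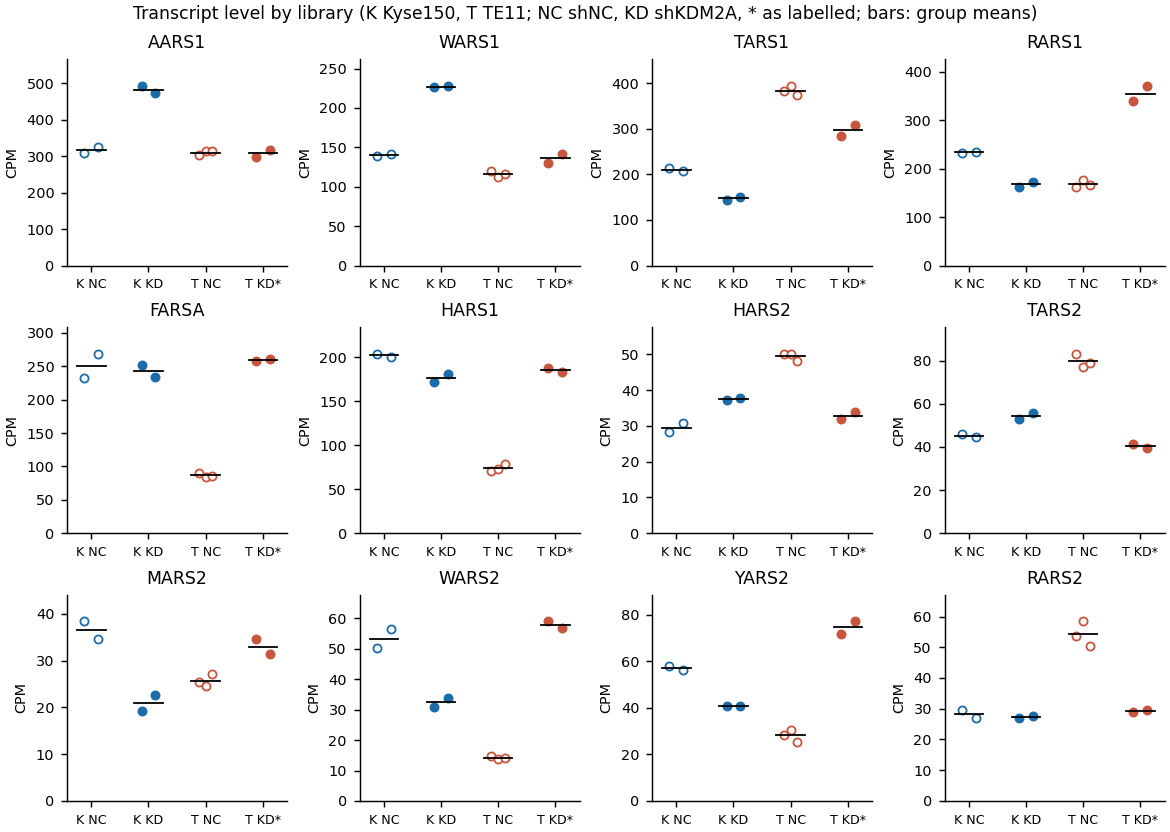
CPM (vertical axes from 0) of 12 synthetase genes in each library of the 4 groups, with 1 point per library and a bar at each group mean. The Kyse150 knockdowns lie above their controls for AARS1 and WARS1 and below them for TARS1, RARS1, MARS2, WARS2 and YARS2, while WARS2 in TE11 runs from 13.79 to 14.79 in the controls and stands at 59.01 and 56.75 in the libraries labelled shKDM2A.

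The partners of the synthetases in Kyse150 were read from lists of the neighbouring steps. All 3 scaffold genes of the multi-synthetase complex fell: AIMP2 to 0.597 of control (edgeR adjusted p = 4.89e-08), AIMP1 to 0.652 and EEF1E1, which stood below 8 CPM, to 0.548 (range of the adjusted p 0.00334 to 0.228). Of 22 tested genes of ATF4 and its targets other than synthetases, 18 rose and 1 fell, with a median log2 fold change of 1.20. ASNS, which makes asparagine, was 3.86-fold higher, DDIT4, an inhibitor of mTOR signalling, 2.99-fold and PSAT1, of serine synthesis, 2.28-fold. The 8 cytosolic rises on the ATF4 list ran from 1.19-fold to 1.62-fold. Of 10 tested amino acid transporters 7 rose, among them SLC38A2 (1.93-fold), SLC3A2 (1.45-fold) and SLC1A4 (2.42-fold), and SLC7A6 fell. Over all genes tested in Kyse150, 24.8% were called higher and 23.3% lower. Differences of these lists from those shares were not tested.

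Other steps of tRNA handling and translation were mixed in Kyse150. Of the 4 mitochondrial elongation factors, GFM1 fell to 0.755 and TSFM to 0.692 of control, and TUFM and GFM2 were not called. Of the cytosolic elongation factors EEF2 (1.20-fold) and EEF1A1 (1.16-fold) rose and EEF1D fell to 0.842 of control. Of 10 genes of tRNA processing and export, 4 fell, among them CLP1 (0.571 of control), ELAC2 (0.768) and RTCB (0.817), and 1 rose, beside 23.3% lower and 24.8% higher among all genes tested. GATB, GATC, QRSL1 and MTFMT, of mitochondrial amidation and formylation, were not called, with GATC the lowest at 0.833 of control. Of the 5 genes listed for amino acid sensing through GCN2, EIF2S1, the alpha subunit of eIF2, fell to 0.630 of control. EIF2A, which was put on that list but is a separate factor and not a subunit of eIF2, fell to 0.774. SEPSECS, which makes selenocysteinyl-tRNA, rose 1.56-fold (edgeR adjusted p = 0.0472, range 0.0380 to 0.338) and was the 1 gene called of 4 on its list.

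**Figure D3:**
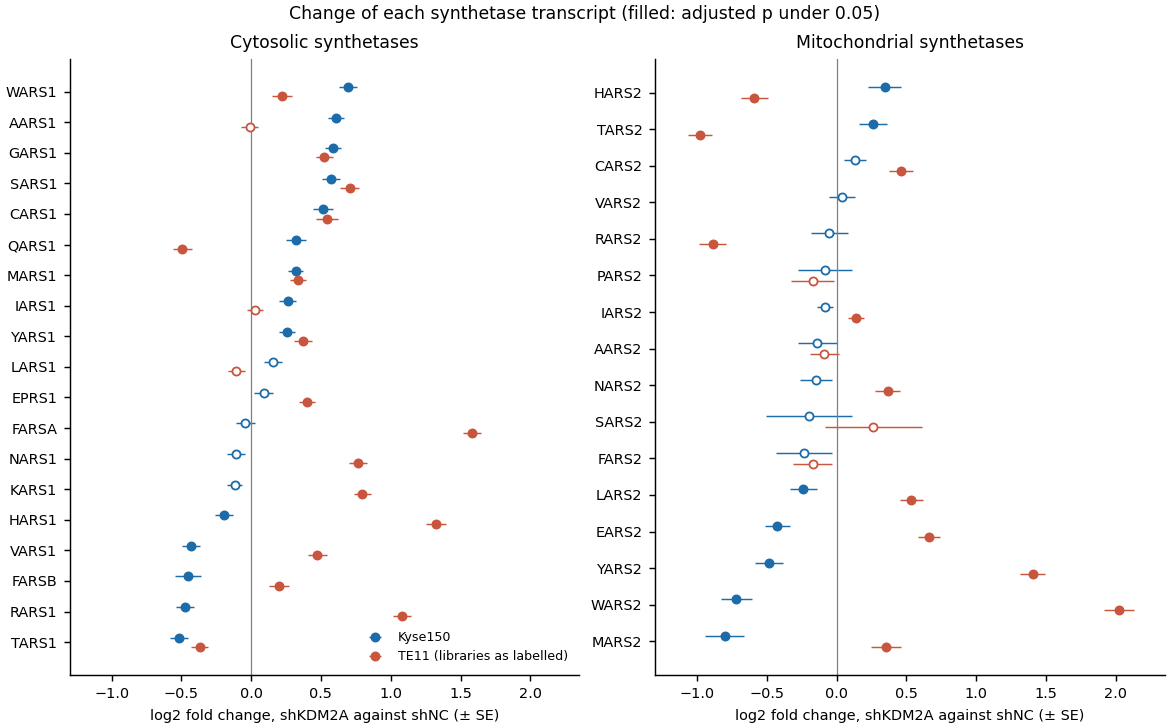
Log2 fold change of each synthetase with its standard error (filled points passed the adjusted p threshold), shKDM2A against shNC, for Kyse150 and for the TE11 libraries as labelled, cytosolic and mitochondrial genes apart. The Kyse150 values lie between -0.80 and 0.70, and the TE11 values between -0.98 and 2.02.

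In TE11 most synthetases of both compartments were higher in the libraries labelled shKDM2A. Of the 19 cytosolic genes 14 were called higher and 2 lower. Of the 15 mitochondrial genes tested 8 were called higher and 3 lower. Among all 16453 genes tested 78.1% were called, 35.9% higher and 42.2% lower, so 27 called synthetases of 34 is near the share of all genes. Their direction differed from that of all genes, a difference that was not tested and not set against genes of like level. The median log2 fold change was 0.40 over the cytosolic and 0.26 over the mitochondrial genes, beside -0.09 over all genes tested. That last median was -0.46 without a low-count filter and -0.07 over genes with a mean CPM of 1 or more. Groups did not overlap for 28 of the 34, against 84.3% of all genes. The squamous, fibroblast and endothelial marker sums were lower in the same libraries, as given above, and their part here was not tested.

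The largest cytosolic rises were in FARSA (ENSG00000179115, chr19:12922479-12934037), HARS1 (ENSG00000170445, chr5:140673904-140691862) and RARS1 (ENSG00000113643, chr5:168486445-168519299). FARSA was at 89.82, 84.57 and 85.64 CPM in the controls and at 258.3 and 261.4 in the labelled libraries, 3.00-fold higher (log2 SE 0.07; edgeR adjusted p = 1.65e-25). HARS1 was at 71.13, 72.61 and 78.62 CPM in the controls and at 187.9 and 183.5 in the labelled libraries, 2.50-fold higher (log2 SE 0.07; edgeR adjusted p = 1.22e-21). RARS1 was at 161.5, 176.2 and 165.4 CPM in the controls and at 338.8 and 370.1 in the labelled libraries, 2.11-fold higher (log2 SE 0.06; edgeR adjusted p = 4.04e-20). The groups of all 3 were far apart. KARS1, for lysine, was at 300, 277.8 and 274.5 CPM in the controls and at 488.4 and 498.8 in the labelled libraries (1.74-fold, edgeR adjusted p = 1.48e-16). NARS1, for asparagine, was at 159.1, 170.9 and 157.8 CPM in the controls and at 278.1 and 274.9 in the labelled libraries (1.70-fold, edgeR adjusted p = 6.28e-15). Neither gene had been called in Kyse150. SARS1 was at 101, 94.61 and 89.99 CPM in the controls and at 152 and 158.1 in the labelled libraries (1.63-fold, edgeR adjusted p = 2.52e-12). GARS1 was at 188.4, 209.9 and 199.2 CPM in the controls and at 279 and 294.1 in the labelled libraries (1.44-fold, edgeR adjusted p = 4.33e-10). Both were also higher in the Kyse150 knockdowns.

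The remaining cytosolic rises were CARS1 (1.46-fold), VARS1 (1.39-fold), EPRS1 (1.32-fold), YARS1 (1.29-fold), MARS1 (1.26-fold), WARS1 (1.17-fold) and FARSB (1.15-fold). WARS1 was lost without labelled shKDM2A replicate 2 (edgeR adjusted p = 0.136, over a range of 1.53e-04 to 0.136), and FARSB with upper quartile scaling, without that library and without control replicate 3 (range 0.00219 to 0.105). QARS1 fell to 0.710 of control and TARS1 to 0.774. AARS1, IARS1 and LARS1 were not called, and AARS1, among the 3 smallest p values of the cytosolic enzymes in Kyse150, stood at 302.4, 313.7 and 313 CPM in the controls and at 298.4 and 316.6 in the labelled libraries. The 13 genes of the ATF4 list had a median log2 fold change of 0.37, and the 6 others had one of 0.94.

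Among mitochondrial enzymes WARS2 had the largest change of any synthetase. It was at 14.79, 13.79 and 14.12 CPM in the TE11 controls and at 59.01 and 56.75 in the labelled libraries, 4.06-fold higher (log2 SE 0.10; edgeR adjusted p = 5.53e-22). YARS2 was at 28.43, 30.55 and 25.48 CPM in the controls and at 71.93 and 77.11 in the labelled libraries, 2.65-fold higher (log2 SE 0.09; edgeR adjusted p = 1.42e-18). EARS2 was at 50.49, 48.09 and 51.22 CPM in the controls and at 77.17 and 81 in the labelled libraries, 1.58-fold higher (log2 SE 0.08; edgeR adjusted p = 5.54e-10). No control of these 3 genes reached a labelled library. TARS2 was at 83.17, 77.24 and 78.71 CPM in the controls and at 41.32 and 39.61 in the labelled libraries, or 0.508 of control (log2 SE 0.09; edgeR adjusted p = 4.61e-14). RARS2, for arginine, was at 53.77, 58.39 and 50.47 CPM in the controls and at 28.87 and 29.71 in the labelled libraries, or 0.541 of control (log2 SE 0.10; edgeR adjusted p = 3.12e-11). HARS2 fell as well, to 0.665 of control, so these 3 stood against the direction of most others.

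LARS2 (1.45-fold), CARS2 (1.38-fold), NARS2 (1.29-fold), MARS2 (1.28-fold) and IARS2 (1.10-fold) completed the mitochondrial rises. MARS2 was lost without labelled shKDM2A replicate 1 (edgeR adjusted p = 0.0669, over a range of 0.00168 to 0.0669). The IARS2 adjusted p of 0.0292 ran from 0.00947 to 0.333 and was lost, among others, without labelled shKDM2A replicate 1 and without control replicate 3. AARS2, FARS2, PARS2 and SARS2 were not called. VARS2 (valine) was not tested in TE11: it held 1, 1 and 0 counts in the controls and 3 and 0 in the labelled libraries, but a mean of 570 counts per library in Kyse150. In GENCODE release 29, 22% of the VARS2 exon bases overlap GTF2H4 on the same strand. GTF2H4 itself held a mean of 0.25 counts per library in Kyse150 and 0 in TE11. The tables were counted with different annotations, so annotation and line cannot be told apart in this gap.

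The same companion lists were read in TE11. Of the scaffold genes AIMP2 rose 2.46-fold (edgeR adjusted p = 1.70e-19), and AIMP1 and EEF1E1 were not called. Of 23 tested genes of ATF4 and its targets 6 rose and 14 fell, with a median log2 fold change of -0.35. ASNS was not called and was scarce in TE11, at 8 to 16 counts in the controls and 10 in each labelled library. In Kyse150 its means were 65.0 CPM in the controls and 251 in the knockdowns. Annotation and line cannot be told apart in this gap. DDIT4 fell to 0.147 of control and PHGDH, of serine synthesis, to 0.209. NUPR1, a stress-induced nuclear protein, was at 45.97, 45.30 and 49.88 CPM in the controls and had no count in the labelled libraries, at least 276-fold lower against a floor of 3 counts over the group. Of the 13 cytosolic synthetases of the ATF4 list 9 were called higher and 1 lower. Beside these counts, 35.9% of all genes tested were called higher and 42.2% lower, and the difference between the lists was not tested. Of 11 transporters 4 rose, led by SLC7A1 (2.52-fold), and 6 fell, among them SLC7A11 (0.196 of control) and SLC38A2 (0.395), beside 35.9% higher and 42.2% lower among all genes tested.

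Of the translation and tRNA genes in TE11, the mitochondrial elongation factors TUFM (1.36-fold) and GFM1 (1.44-fold) rose, GFM2 was not called, and EEF2 (1.32-fold) and EEF1A1 (1.20-fold) rose among the cytosolic ones while EEF1B2 fell to 0.814. ELAC2 (2.34-fold) and TRNT1 (1.73-fold), which process the 3′ end of tRNA and add its CCA end, rose, and TSEN34, of the tRNA splicing endonuclease, fell to 0.460 of control. GATC, of the amidation complex, rose 1.40-fold, and PSTK (2.51-fold) and DTD1 (1.37-fold) rose on the selenocysteine and proofreading list. The DTD1 call (edgeR adjusted p = 0.0231) did not hold in every alternative. Its log2 change ran from 0.25 to 0.65 with 1 library left out. EIF2AK4, which encodes GCN2, rose 1.56-fold, and IMPACT, an inhibitor of GCN2, fell to 0.355 of control. EIF2A, the separate factor listed with them, rose 1.29-fold.

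**Figure D4:**
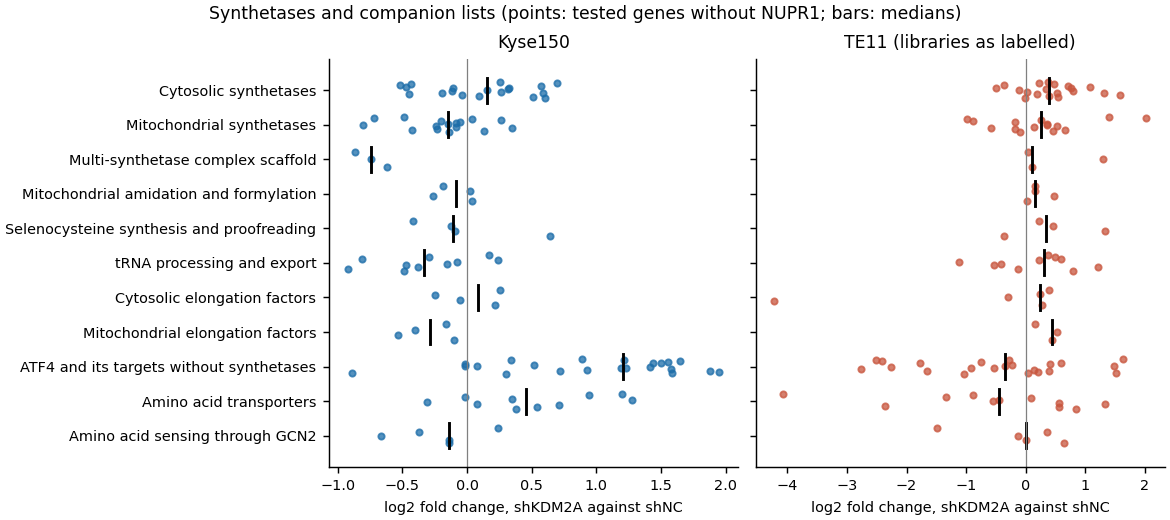
Log2 fold changes of the genes of each companion list, 1 point per tested gene apart from NUPR1 and a bar at the median, in Kyse150 and in the TE11 libraries as labelled. The list of ATF4 and its targets has a median of 1.20 in Kyse150 and of -0.35 in TE11.

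Enzymes for the same amino acid were then set side by side across compartments. In Kyse150 17 pairs could be formed, EPRS1 pairing with EARS2 and PARS2, and FARSA and FARSB both with FARS2. Both members were called in 5 pairs, for histidine, methionine, threonine, tryptophan and tyrosine, and in all 5 the directions were opposite. Of all single genes tested in Kyse150, 48.2% were called, 24.8% higher and 23.3% lower. A share for pairs of other genes was not worked out in either line. For tryptophan, methionine and tyrosine the cytosolic enzyme was higher and the mitochondrial one lower, and for histidine and threonine the reverse held, with the limits given above for HARS1, HARS2 and TARS2. WARS1 held 2.52 and 2.75 counts per WARS2 count in the controls against 6.71 and 7.34 in the knockdowns, given here from lowest to highest. MARS1 held 10.1 to 10.8 counts per MARS2 count in the controls and 21.0 to 24.6 in the knockdowns. These ratios are of counts, not of molecules, since the 2 genes differ in length. The change of the mitochondrial enzyme lay below that of its cytosolic partner in 12 of the 17 pairs, by a median log2 difference of -0.34.

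In TE11, where 78.1% of all genes tested were called (35.9% higher and 42.2% lower), 16 pairs were tested with both members called in 9. In 6 of these both were higher, in 1 (threonine) both were lower, and in 2 (histidine and arginine) the cytosolic enzyme was higher and the mitochondrial one lower. RARS1 held 3.00 to 3.28 counts per RARS2 count in the controls and 11.7 to 12.5 in the labelled libraries. For tryptophan the ratio moved the opposite way to Kyse150, from 8.14 to 8.26 WARS1 counts per WARS2 count in the controls down to 2.20 to 2.50. For tyrosine it went from 5.48 to 6.75 in the controls down to 2.91 to 2.98, whereas in Kyse150 it stood at 4.21 to 4.59 in the controls and 7.27 to 7.41 in the knockdowns. The median log2 difference, mitochondrial minus cytosolic, was -0.23.

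**Figure D5:**
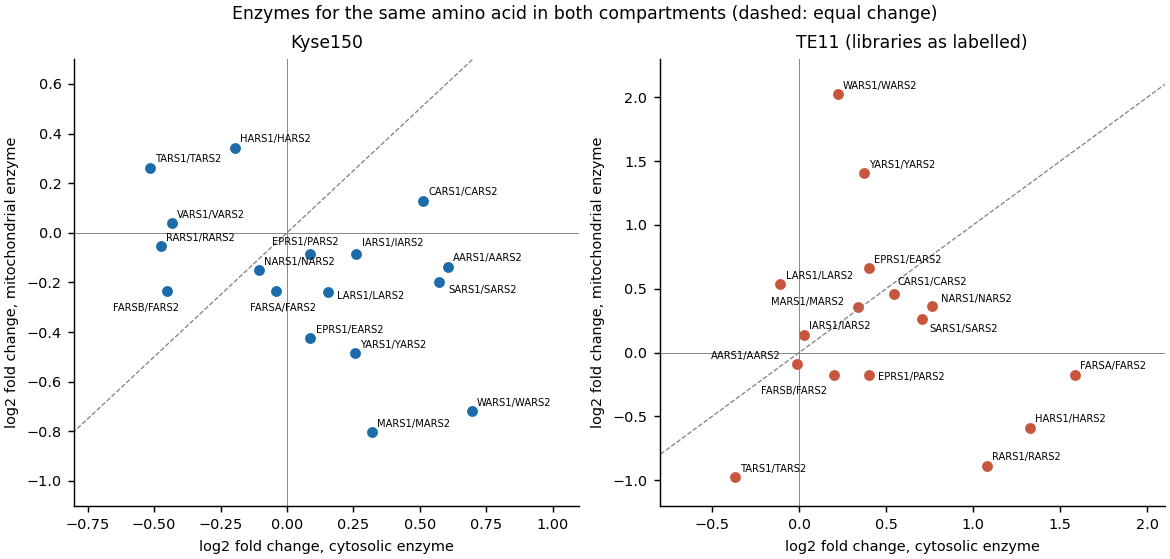
Log2 fold change of the mitochondrial enzyme (vertical axis) against that of the cytosolic enzyme for the same amino acid (horizontal axis), 1 point per pair, in Kyse150 and in the TE11 libraries as labelled. WARS1 and WARS2 lie at 0.70 and -0.72 in Kyse150 and at 0.22 and 2.02 in TE11.

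HARS1 and HARS2 (chr5:140691426-140699318) start beside each other on opposite strands of chromosome 5, and GENCODE release 29 has 437 exon bases in both, 11.7% of HARS2 and 5.57% of HARS1. Whether reads were assigned by strand is not stated in any source at hand, so reads there could be lost or shared. The ratio of HARS1 to HARS2 counts was 6.52 to 7.20 in the Kyse150 controls and 4.61 to 4.81 in the knockdowns, and 1.42 to 1.63 in the TE11 controls against 5.42 to 5.89 in the labelled libraries. MARS1 shares 355 exon bases with DDIT3, an ATF4 target on the opposite strand, but held a mean of 2848 counts per Kyse150 library against 110.5 for DDIT3. SARS2, with 28 counts per Kyse150 library on average, shares 46.2% of its exon bases with another annotated gene on the same strand and is uncertain.

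The responses of the lines were compared by a contrast of both differences in 1 fit of all 9 libraries. This tests the difference between the TE11 libraries as labelled and Kyse150, not between lines with KDM2A lowered in both. It was called for 24 of the 35 synthetases, 16 with the higher response in TE11 and 8 with the lower, against 66.9% of all 15895 genes tested (33.8% and 33.1%). The count is near the share of all genes. The median difference was 0.16 on the log2 scale over the cytosolic and 0.42 over the mitochondrial genes, beside -0.06 over all genes. The 5 with the smallest p were WARS2, FARSA, RARS1, HARS1 and YARS2. WARS2 differed by 2.77 on the log2 scale (SE 0.15; edgeR adjusted p = 4.83e-24), FARSA by 1.65 (SE 0.10; 2.32e-23), RARS1 by 1.58 (SE 0.09; 3.41e-23), HARS1 by 1.54 (SE 0.10; 1.51e-21) and YARS2 by 1.91 (SE 0.14; 8.44e-19). All but FARSA were called lower in Kyse150 and higher in TE11.

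Counted by direction, 6 of 19 cytosolic genes were called higher in both lines (CARS1, GARS1, MARS1, SARS1, WARS1 and YARS1) and TARS1 was called lower in both. Among the 13276 genes tested in both lines, 6.47% were called higher in both, 4.69% lower in both and 28.9% in opposite directions. The difference between the lines was not called for 6 of these 7 genes and was called for WARS1, whose rise was 0.45 smaller in TE11 on the log2 scale. A difference that was not called does not show equal responses. QARS1 was higher in Kyse150 and lower in TE11, and FARSB, HARS1, RARS1 and VARS1 the reverse. No mitochondrial gene was called in the same direction in both lines, with 0 also at an edgeR unadjusted p under 0.05 and 0 with DESeq2. The difference between the compartments in these counts was not tested. EARS2, LARS2, MARS2, WARS2 and YARS2 were lower in Kyse150 and higher in TE11, HARS2 and TARS2 the reverse, and the difference was called for all 7. The largest differences toward Kyse150 were in TARS2 (-1.22), HARS2 (-0.91), RARS2 (-0.81) and QARS1 (-0.79).

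Since KDM2A goes against the label of the TE11 libraries, levels were also set side by side across tables on a joint scale, as a description. Of 34 synthetases, VARS2 left out, 22 (64.7%) stood nearer to the Kyse150 controls than to the TE11 controls in the libraries labelled TE11 shKDM2A, against 65.3% of 16304 genes in both tables. The median absolute log2 distance over the 34 was 0.22 to the Kyse150 controls and 0.47 to the TE11 controls. Over all those genes the medians were 0.37 and 0.67, so the distances were shorter for the synthetases and the share nearer to the Kyse150 controls was close to that of all genes. These differences were not tested. On that scale WARS2 stood at 61.95 and 59.32 CPM in the libraries labelled TE11 shKDM2A, at 14.3 to 15.3 in the TE11 controls and at 49.34 and 55.35 in the Kyse150 controls. Annotation and line cannot be told apart between the tables.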

How the data were processed

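Poly(A) RNA libraries of 9 samples were analysed, grouped by their titles. The authors deposited raw integer counts for each gene, in 1 table per line. Per the submitters' processing notes, reads were handled with HISAT2 2.1.0 and HTSeq 0.9.1 after bcl2fastq 2.19. Those notes list GRCh38.p13 as well as GRCh37.p13, and which build belongs to which table is open. The tables list 57820 (Kyse150) and 60683 (TE11) identifiers, so their annotations differ. Summary rows without a gene were left out. Reads on no feature made up 42.3% to 44.5% of a column and ambiguous reads 1.85% to 2.72%.

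Each line was tested on its own with the robust quasi-likelihood test of edgeR 4.0.16 (R 4.3.3), after TMM scaling and a filterByExpr filter at 10 counts (15 in total). Benjamini-Hochberg adjusted values, taken over every tested gene, were called under 0.05. The contrast of the 2 responses used 1 fit of all 9 libraries over shared genes. Standard errors come from the fit. Coordinates and exon lengths are those of GENCODE release 29 on GRCh38, and promoter sequences are from RefSeq on GRCh38.p14. Alternatives were DESeq2 1.42.0, 2 other scalings, other low-count filters, the replicate number as a block, 1 joint fit and each library left out. Fits were tested on simulated data. Floors of 3 counts cover counting error only. Replicates within a group differed by more than counting noise (chi-square per degree of freedom 1.62 to 4.92), so none was merged.

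Members and lists were chosen with earlier results of these data known. Every synthetase is named. Values in every library are given per line for the 7 cytosolic and 5 mitochondrial genes with the smallest p, and for the 5 with the smallest p for the difference between lines. Of each companion list the 3 genes with the smallest p per line were eligible. Other genes named to resolve a small count, or to set a gene of one line beside the other, were chosen after their values were seen.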

Additional observations from a re-analysis of the deposited data

Results flagged for a closer look

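The difference between the 2 responses, TE11 libraries as labelled minus Kyse150, passed the test of the difference itself (edgeR quasi-likelihood contrast, adjusted p under 0.05) for 24 of the 35 synthetases, beside 66.9% of all genes tested. KDM2A passed it too, with a log2 difference of 0.90, since it was lower in the Kyse150 knockdowns and not in the labelled TE11 libraries.

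Among cytosolic enzymes the response was higher in TE11 for FARSA (1.65), RARS1 (1.58), HARS1 (1.54), KARS1 (0.94), VARS1 (0.93), NARS1 (0.90), FARSB (0.67) and EPRS1 (0.34), as log2 differences. It was lower in TE11 for QARS1 (-0.79), AARS1 (-0.59), WARS1 (-0.45), LARS1 (-0.24) and IARS1 (-0.21). Among mitochondrial enzymes it was higher in TE11 for WARS2 (2.77), YARS2 (1.91), MARS2 (1.18), EARS2 (1.11), LARS2 (0.80), NARS2 (0.54), CARS2 (0.36) and IARS2 (0.25). CARS2 lost its call with upper quartile scaling and without labelled TE11 shKDM2A replicate 2 (highest adjusted p = 0.0776 over 15 alternatives). IARS2 lost it with upper quartile scaling, without Kyse150 control replicate 1 and without labelled TE11 shKDM2A replicate 1 (highest adjusted p = 0.173). It was lower in TE11 for TARS2 (-1.22), HARS2 (-0.91) and RARS2 (-0.81).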

How the results depend on the processing

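The called synthetases numbered 17 to 21 in Kyse150, 25 to 28 in TE11 and 21 to 24 for the difference between lines over all alternatives, against 21, 27 and 24. DESeq2 called 27.8% of all genes in Kyse150 (17 synthetases), 55.1% in TE11 (27) and 51.4% for the difference (24). The number of mitochondrial rises in Kyse150 was 2, and became 0 with DESeq2, 1 without a low-count filter, 1 with the replicate block and 0 to 1 without any 1 library. The number of cytosolic genes with a lower response in TE11 was 5, and became 3 with the replicate block and 3 to 5 without any 1 library, being 3 without Kyse150 control replicate 2 or without labelled TE11 shKDM2A replicate 1. The calls for LARS1 and IARS1 in that comparison were lost there. The number of mitochondrial genes with a higher response in TE11 was 6 to 8. The TE11 change of KDM2A was 0.16 with DESeq2 (adjusted p = 0.0836), 0.10 with upper quartile scaling (0.185), 0.16 without a filter (0.0546), 0.17 with the replicate block (0.0838) and 0.10 to 0.24 without any 1 library, all beyond 0.05 except some of the last. The cause was not tested. Samples of the same replicate number showed no shared deviation (correlation of deviations -0.06 in Kyse150, 0.0018 and -0.02 in TE11). In a group of 2 libraries the deviations mirror each other, so these values cannot show whether samples were paired. Nothing in the labels says that a number marks a shared batch. With the replicate block 19 synthetases were called in Kyse150, 26 in TE11 and 22 for the difference.

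No called synthetase changed direction under any alternative run. Reversals were in genes that were not called. In Kyse150, leaving out 1 library gave EPRS1 -0.0325 to 0.196, FARSA -0.149 to 0.0604, FARS2 -0.453 to 0.0065, PARS2 -0.216 to 0.0486, RARS2 -0.121 to 0.0067, VARS2 -0.0899 to 0.147 and GATB -0.086 to 0.148. In TE11 it gave AARS1 -0.0434 to 0.0379, IARS1 -0.014 to 0.0619, AARS2 -0.202 to 0.0324, FARS2 -0.38 to 0.0185, EEF1E1 -0.21 to 0.26 and CSF1R -0.11 to 0.58. AARS1 was 0.0056 in the fit of all 9 libraries, and upper quartile scaling gave IARS1 -0.032 and EEF1E1 -0.0226. For the difference between lines it gave CARS1 -0.0628, MARS1 -0.0785, AARS2 -0.0472 and FARS2 -0.033, the block gave PARS2 0.022, and leaving out 1 library gave GARS1 -0.0922 to 0.0034, AARS2 -0.0454 to 0.189, FARS2 -0.156 to 0.308, PARS2 -0.229 to 0.0942 and VARS2 -2.39 to 2.33. EPRS1 (without knockdown replicate 1) and LARS1 (upper quartile scaling; without control replicate 1) were called in Kyse150, and LARS1 in TE11 (the same 2 settings). Upper quartile scaling moved the median difference of all genes from -0.06 to -0.18. Genes below about 16 CPM had the widest errors.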
